A study of Mus musculus with 14 samples.

Results

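The genes described here are those of the hypoxia-inducible factor (HIF) pathway, of glycolysis and of glucose and monocarboxylate transport in the mouse hippocampus. They were picked by symbol, with earlier results of these data known, as the HIF subunits and their oxygen-sensing regulators, a set of known HIF targets, the 2 VEGF receptors, the glycolytic enzymes, and every numbered member of the Slc2a and Slc16a transporter families. Of the 7756 genes in the deposited table, 47 had such a symbol. Of these, 44 had a mean count of at least 40 in each group and were tested, and the other 3 (Hk3, Slc2a10 and Slc16a3) were not. A further 32 genes that the same symbols would cover, among them Slc2a1, Slc2a3, Ldha, Pgk1, Epas1, Egln1 and Vhl, were not analysed here.

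All mice were male C57BL/6J animals, aged 8 weeks when a regime of 28 days began. The intermittent hypoxia (IH) group (5 libraries) breathed oxygen that was cycled every 2 min between 10% and 21% during 8 h of each day, the sustained hypoxia (SH) group (5 libraries) was held at 10% oxygen for the same 8 h each day, and the control group (4 libraries) stayed at 21%. A maze test and a foot-shock avoidance test came between the last exposure and the taking of the hippocampi, so the RNA of the IH and SH groups was not collected during hypoxia. The control libraries came from a preliminary experiment for which such tests are not stated, and the IH and SH libraries from the main experiment, and the 2 hypoxia groups used different chambers, so exposure cannot be told apart from experiment or chamber.

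HIF is a transcription factor made of an oxygen-regulated alpha subunit and a constitutive partner such as ARNT. In normal oxygen, prolyl hydroxylases of the EGLN family mark the alpha subunit for destruction. When oxygen falls, the subunit escapes this mark, pairs with ARNT and binds a short core sequence, RCGTG, near genes for blood vessel growth, glucose uptake, glycolysis and lactate handling. Much of this control acts on protein stability, so the mRNA of the alpha subunit need not follow oxygen. In the brain, lactate and pyruvate also pass between cells through the monocarboxylate transporters of the SLC16 family.

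The promoters of the 3 members with the largest passing differences between IH and control are shown because such a core could lie there, close to a start of transcription. Each is the 250 bases before an annotated transcript start in GRCm39 (GENCODE annotation), 5′ to 3′ on the strand of the gene. Capitals mark the letters ACGTG or GCGTG on either strand. The window of Vegfa is chr17:46343310-46343559 (minus strand) and that of P4ha1 is chr10:59158842-59159091 (plus strand), both before the start of every coding transcript of these genes in the consensus coding set (CCDS). Pfkfb3 has more than 1 such start, and the window shown is chr2:11558889-11559138 (minus strand), at the outer end of the gene, where 1 of these transcripts starts. Its start shared by most of these transcripts (6) lies at 11506912, and the bases before that start are not shown because they lie inside the gene.
Vegfa: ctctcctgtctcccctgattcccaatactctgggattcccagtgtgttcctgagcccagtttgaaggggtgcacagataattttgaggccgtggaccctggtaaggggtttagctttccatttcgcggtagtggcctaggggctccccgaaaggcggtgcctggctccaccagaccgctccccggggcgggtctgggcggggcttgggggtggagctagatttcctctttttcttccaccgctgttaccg
P4ha1: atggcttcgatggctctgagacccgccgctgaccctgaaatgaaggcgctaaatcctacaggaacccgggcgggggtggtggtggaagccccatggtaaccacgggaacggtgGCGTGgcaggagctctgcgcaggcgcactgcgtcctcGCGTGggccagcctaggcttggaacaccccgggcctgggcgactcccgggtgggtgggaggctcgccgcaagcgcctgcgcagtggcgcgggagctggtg
Pfkfb3: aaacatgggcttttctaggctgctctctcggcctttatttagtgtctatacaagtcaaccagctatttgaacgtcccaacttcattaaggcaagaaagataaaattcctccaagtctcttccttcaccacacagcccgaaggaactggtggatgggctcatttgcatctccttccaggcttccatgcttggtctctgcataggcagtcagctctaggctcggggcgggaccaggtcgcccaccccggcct
The P4ha1 window held GCGTG at 137 and at 100 bases before the start. The outer window of Pfkfb3 and that of Vegfa held neither motif, whereas the 250 bases before the shared start of Pfkfb3 held GCGTG at 111 bases, and ACGTG on both strands as CACGTG at 42 and 41 bases, before that start. With 1 start per gene, that of the transcript the annotation calls canonical, ACGTG or GCGTG stood in the 250 bases before the start of 3705 of the 7293 tested genes with a mapped start (50.8%), of 26 of the 44 members tested (59.1%) and of 7 of the 10 members that passed a test. The canonical start lay over 1000 bases inside the gene for 1092 of these genes and 10 of these members. Pfkfb3 is one of them, with a canonical start at 11507417 and no motif in the 250 bases before it. In the canonical windows of Hif1a, Pfkp, Eno3 and Slc16a13 the letters ACGTG lay on both strands at once, as CACGTG. A match is a description of these letters. Distances beyond 250 bases were not searched for any gene, shown or not, and starts other than the canonical one only for the genes shown.

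Library totals ranged from 7203663 to 11777102 counts. All 10 hippocampus markers were in the table, and their summed normalized count was 21961 to 36924. Of these, Prox1, a marker of dentate granule cells, was higher in IH (log2 fold change 0.66, edgeR adjusted p = 0.0169) and in SH (0.81, edgeR adjusted p = 0.00388). The other 9 did not pass against control in either group, and 3 of the 10 were below 0 in each. Gjb6, 1 of 3 astrocyte markers tested, was also higher in IH (0.47, edgeR adjusted p = 0.00203) and in SH (0.30, edgeR adjusted p = 0.0134). The other astrocyte markers, Gfap (0.05 in IH and -0.12 in SH) and Ntsr2 (-0.14 in both), did not pass. The libraries differed in markers of the choroid plexus, the tissue in the ventricle next to the hippocampus. The sum of 15 such markers was 4096 to 11662 in 8 libraries and 31060 to 123667 in the other 6 (control 4, IH 1, IH 4, SH 1, SH 2 and SH 5), and no marker was at 0 in every library. Summed endothelial markers (14 of 15 in the table) were 6921 to 8214 in control, 7439 to 7888 in IH and 7759 to 8856 in SH. Summed erythroid markers (5 of 7) were 2926 to 3189 in control, 1649 to 2304 in IH and 2203 to 3081 in SH, and all 4 tested were lower in IH than in control. Of 9 oligodendrocyte markers, 2 were higher in each hypoxia group than in control, and 2 of 6 microglia markers were lower in SH. In bulk tissue, fewer cells of a type and less RNA per cell cannot be told apart.

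Against control, 5 of the 44 members rose in IH (Arnt, Vegfa, P4ha1, Pfkfb3 and Slc2a13) and 0 fell. In SH, 4 rose (Flt1, Hk2, Pfkfb3 and Slc2a13) and 3 fell (Egln2, Ldhb and Slc2a8). Between IH and SH, 1 member was higher in IH (Vegfa) and 0 were lower. A member passed at an adjusted p under 0.05 in the quasi-likelihood test of edgeR, where p was adjusted after Benjamini and Hochberg over all 7338 genes tested. Over all genes tested, the share higher in IH than in control was 6.08% and the share lower 4.85%, the shares in SH were 10.1% higher and 10.5% lower than control, and 1.47% of genes were higher and 0.899% lower in IH than in SH. Of the members, 11.4% passed as higher in IH against control and none as lower, and 9.09% were higher and 6.82% lower in SH. The share higher in IH was thus above that of all genes, and the other shares against control were below theirs. These shares rest on 5, 0, 4 and 3 members, and no test compared them with all genes. The authors kept genes for this table partly by their difference from control, so these shares hold only within it. The median log2 fold change of the 44 members was -0.03 in IH and -0.06 in SH, beside -0.02 and 0.00 over all genes.

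**Figure D1:**
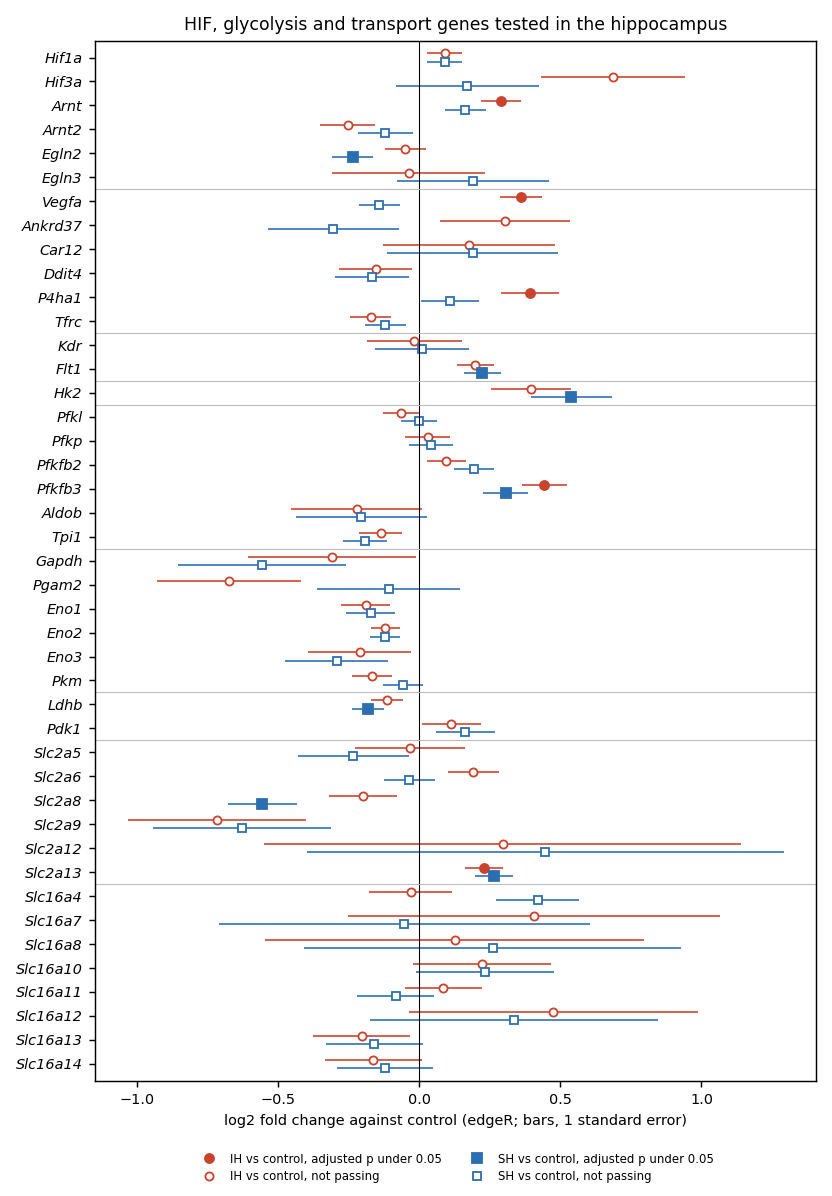
Log2 fold change against control of 43 of the 44 members tested, in the order of their roles, with IH as circles and SH as squares and bars of 1 standard error; filled symbols have an adjusted p under 0.05 (edgeR). 5 circles are filled on the right and none on the left, whereas 4 squares are filled on the right and 3 on the left.

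Among the HIF subunits and regulators, Arnt (chromosome 3, 95341365 to 95404551), which encodes a partner of the HIF alpha subunits, was higher in IH. By library, its normalized counts (counts scaled to a common library size) were 1213, 1246, 1243 and 1212 in control and 1599, 1557, 1366, 1439 and 1550 in IH. In SH they were 1258, 1358, 1278, 1572 and 1413. Every IH library and every SH library was above every control library. The mean rose by 22.3% in IH, from 1229 ± 18.5 (SD, n = 4) to 1502 ± 96.4 (SD, n = 5), a log2 fold change of 0.29 with a standard error (SE) of 0.07 (edgeR adjusted p = 0.0183). The SH difference, 0.16, did not pass (edgeR adjusted p = 0.114), and IH and SH were not distinguished (0.13, edgeR adjusted p = 0.393). The IH call was lost without control replicate 1 (edgeR adjusted p = 0.0516). With summed endothelial markers as a covariate, SH passed as well (0.27, edgeR adjusted p = 0.0399).

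Hif1a, the oxygen-regulated alpha subunit, did not pass in any comparison. Control libraries averaged 1674 ± 138 (SD, n = 4), IH libraries 1781 ± 74.5 (SD, n = 5) and SH libraries 1782 ± 71.0 (SD, n = 5), with a log2 fold change of 0.09 in both hypoxia groups (SE 0.06, edgeR adjusted p = 0.336 in IH and 0.314 in SH). Hif3a, whose product is an alpha subunit with splice forms that can restrain the other subunits, had 119.2 to 199.1 in control, 171.2 to 413.9 in IH and 147.0 to 217.4 in SH. Its log2 fold change in IH was 0.69 with an SE of 0.25, which did not pass (edgeR adjusted p = 0.0879). Arnt2, the ARNT relative that is abundant in neurons, stood at -0.25 in IH (edgeR adjusted p = 0.0994) and -0.12 in SH. The ARNT genes thus pointed in opposite directions, and of the pair Arnt alone passed, in IH.

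Egln2 (chromosome 7, 26853588 to 26866408), one of the prolyl hydroxylases, fell in SH. Its normalized counts were 1656, 1811, 1669 and 1667 in control, 1548, 1626, 1807, 1648 and 1587 in IH, and 1662, 1286, 1403, 1449 and 1414 in SH. SH replicate 1 lay among the control libraries and the other 4 SH libraries lay below all of them. The log2 fold change in SH was -0.24 with an SE of 0.07 (edgeR adjusted p = 0.0306), and in IH it was -0.05 (edgeR adjusted p = 0.664). The call was lost without any 1 of control replicates 1, 2 and 4 and SH replicates 2 to 5 (edgeR adjusted p 0.0536 to 0.0971). Removing each library's trends of counts with GC content and transcript length turned the SH value to 0.05 (edgeR adjusted p = 0.588). Egln3, the prolyl hydroxylase that is itself a strong HIF target, had 34.5 to 103.0 normalized counts over all libraries and did not pass (-0.04 in IH and 0.19 in SH, SE 0.27 each, edgeR adjusted p = 0.940 and 0.651).

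Of the 6 tested HIF targets outside glycolysis, 2 rose in IH (33.3%, beside 6.08% of all genes) and 0 passed in SH. Over all genes, 10.1% were higher and 10.5% lower in SH. Vegfa (chromosome 17, 46327919 to 46343309), the main growth factor for new blood vessels, was the member that set the hypoxia groups apart. By library, the normalized counts were 1525, 1536, 1532 and 1852 in control, 1971, 2125, 1898, 2154 and 2184 in IH, and 1479, 1536, 1547, 1402 and 1334 in SH. Every IH library exceeded every control and every SH library, and control and SH overlapped. Vegfa was 28.3% higher in IH than in control (log2 fold change 0.36, SE 0.07, edgeR adjusted p = 0.00769) and 41.6% higher in IH than in SH (0.50, SE 0.07, edgeR adjusted p = 0.00154). The SH difference from control, -0.14, did not pass (edgeR adjusted p = 0.176).

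The highest control value of Vegfa belonged to control replicate 4, which also had the highest choroid plexus sum. In the 8 libraries with low choroid plexus sums, Vegfa was 1525 to 1536 in control, 1898 to 2184 in IH, and 1547 and 1402 in SH. With those 8 libraries alone the differences were 0.44 against control (edgeR adjusted p = 0.0621) and 0.49 against SH (edgeR adjusted p = 0.264) and did not pass. In that smaller fit, 29 genes of all tested were higher and 22 lower in IH than in control, and 0 passed between IH and SH.

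P4ha1 (chromosome 10, 59159092 to 59209126), a prolyl hydroxylase subunit that modifies collagen, rose in IH as well. Normalized counts were 1039, 1111, 1064 and 1399 in control, 1823, 1417, 1549, 1243 and 1535 in IH, and 1215, 1263, 1199, 1292 and 1245 in SH. All IH libraries except replicate 4 were above all control libraries, and SH lay in a narrow band inside the control range. The log2 fold change was 0.39 in IH with an SE of 0.10 (edgeR adjusted p = 0.0250) and 0.11 in SH (edgeR adjusted p = 0.475), and IH against SH was 0.28 (edgeR adjusted p = 0.149). The IH call was lost without any 1 of control replicates 1, 2 and 3 and IH replicate 1 (edgeR adjusted p 0.0576 to 0.0850). It was the only member to pass without the 6 libraries rich in choroid plexus markers (0.49, edgeR adjusted p = 0.0422).

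**Figure D2:**
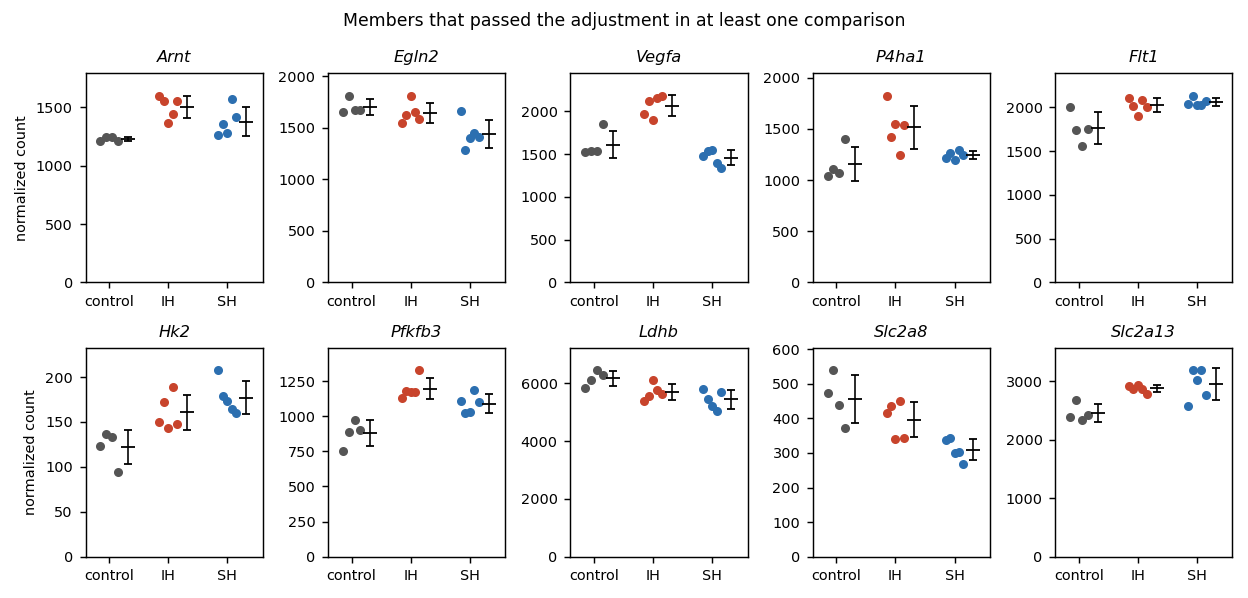
Normalized count in every library of the 10 members that passed in at least 1 comparison, by group, with the group mean and bars of 1 SD beside the points; axes start at 0. In Vegfa the IH points lie above all control and SH points, in Pfkfb3 both hypoxia groups lie above control, and in Slc2a8 the SH points lie below all control points.

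The other 4 targets did not pass. Ankrd37, a small HIF-induced ankyrin repeat gene, was low at 32.5 to 109.0 and had log2 fold changes of 0.30 in IH and -0.31 in SH. Its difference between IH and SH, 0.61, was larger than that of Vegfa but with an SE of 0.22 (edgeR adjusted p = 0.179). Ddit4, an inhibitor of mTOR signaling induced by hypoxia and by glucocorticoids, stood at -0.16 in IH and -0.17 in SH (SE 0.13 each, edgeR adjusted p = 0.432 and 0.376). Tfrc, the transferrin receptor that imports iron, stood at -0.17 in IH (SE 0.07, edgeR adjusted p = 0.127) and -0.12 in SH (edgeR adjusted p = 0.244). With each library's trends in GC content and length removed, Tfrc passed as lower in both, at -0.37 in IH (edgeR adjusted p = 0.00901) and -0.33 in SH (edgeR adjusted p = 0.0138).

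Flt1 encodes VEGF receptor 1, which traps VEGF, and Kdr encodes VEGF receptor 2, which carries most of its signal. Flt1 lies on chromosome 5 from 147498414 to 147662826. Its normalized counts were 2002, 1743, 1559 and 1753 in control, 2111, 2013, 1906, 2084 and 2008 in IH, and 2034, 2133, 2024, 2029 and 2076 in SH. The SH libraries were all above the control libraries, and IH overlapped control. Flt1 rose in SH by 0.22 on the log2 scale (SE 0.06, edgeR adjusted p = 0.0245), and the IH value, 0.20, narrowly missed (edgeR adjusted p = 0.0577). The SH call was lost without any 1 of control replicates 2, 3 and 4 and SH replicate 2 (edgeR adjusted p 0.0516 to 0.0683), and IH passed without control replicate 1 (edgeR adjusted p = 0.0184) or IH replicate 3 (edgeR adjusted p = 0.0428). Kdr stood at -0.02 in IH and 0.01 in SH (SE 0.17 each, edgeR adjusted p = 0.950 and 0.977).

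Both receptors are made mainly by endothelial cells. Of the 14 endothelial markers, 2 rose in SH (Abcb1a and Itm2a), which is 14.3% beside 10.1% of all genes. With summed endothelial markers as a covariate, Flt1 in SH was 0.20, beside 0.22 without it, and no longer passed (edgeR adjusted p = 0.110). The part of endothelial cells in the Flt1 value was not tested beyond this. In IH, the endothelial marker Ly6c1 rose and Itm2a fell.

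In glycolysis, the members that rose were Hk2, which acts at the first step, and Pfkfb3, which sets the rate of a later control step, while the enzymes of the lower steps stood below control without passing. Pfkfb3 (chromosome 2, 11476244 to 11558888) makes the sugar phosphate that is the strongest activator of phosphofructokinase, and it was the member that rose in both hypoxia groups with the smallest p in IH. By library, the normalized counts were 750.7, 889.5, 975.3 and 905.3 in control, 1129, 1181, 1174, 1172 and 1329 in IH, and 1108, 1019, 1029, 1189 and 1099 in SH. All 10 hypoxia libraries were above all 4 control libraries. The log2 fold change was 0.44 in IH (SE 0.08, edgeR adjusted p = 0.00379) and 0.31 in SH (SE 0.08, edgeR adjusted p = 0.0154), that is 36.0% and 23.7% above control. IH and SH were not distinguished (0.14, edgeR adjusted p = 0.420). Without control replicate 1, the lowest library, the SH value was 0.24 and did not pass (edgeR adjusted p = 0.0530). The related Pfkfb2 stood at 0.10 in IH and 0.19 in SH, where all SH libraries lay above control (edgeR adjusted p = 0.0615).

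Hk2 (chromosome 6, 82699740 to 82751469), the hexokinase that HIF induces and that binds mitochondria, rose in SH. Normalized counts were 123.8, 136.2, 133.2 and 94.7 in control, 150.5, 172.3, 143.1, 189.4 and 148.2 in IH, and 207.9, 179.3, 173.8, 164.9 and 160.4 in SH. No library of either hypoxia group was as low as any control library. The log2 fold change was 0.54 in SH (SE 0.14, edgeR adjusted p = 0.0173) and 0.40 in IH (edgeR adjusted p = 0.0825), and IH against SH was -0.14 (edgeR adjusted p = 0.694). The SH call was lost without control replicate 4, the lowest library (0.44, edgeR adjusted p = 0.0526). Hk3, the leukocyte hexokinase, was under the count limit with 21 to 63 counts per library.

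Levels between enzymes were compared per kilobase of annotated transcript. The mean normalized count per kilobase was 10054 for Pkm, 6427 for Eno1, 6385 for Tpi1, 6077 for Eno2 and 3772 for Ldhb, against 187.0 for Pfkfb3 and 19.7 for Hk2. Eno1, Tpi1 and Eno2 were within the range of one another's libraries. The phosphofructokinase subunits Pfkp (1470) and Pfkl (1328) and the later enzyme Gapdh (1005) lay between. The Gapdh value may lack reads assigned to copies of the gene, which was not tested. Pgam2 (148.4) and Eno3 (87.1), the forms typical of muscle, were low, and the libraries of Pgam2 and Pfkfb3 overlapped on this scale. Pfkp and Pfkl had log2 fold changes between -0.06 and 0.04 against control.

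All 6 tested members of the lower steps, from Gapdh to Pkm, had a negative log2 fold change in both IH and SH, and 0 of them passed in either. Their median was -0.20 in IH and -0.15 in SH. Over all genes tested, 51.7% were below 0 in IH and 49.6% in SH. The values share the same control libraries in both comparisons. Pkm, the pyruvate kinase, had normalized counts of 26776, 26258, 25341 and 25221 in control and 23677, 22829, 25204, 22842 and 20717 in IH, so the groups did not overlap, by a small margin. Its log2 fold change was -0.17 in IH (SE 0.07, edgeR adjusted p = 0.128) and -0.06 in SH (edgeR adjusted p = 0.593). Eno1, an enolase found in all cells, stood at -0.19 in IH (SE 0.09, edgeR adjusted p = 0.157) and -0.17 in SH (edgeR adjusted p = 0.169), and its reads could have been shared with its near-identical copy Eno1b, which was not tested. The neuronal enolase Eno2 stood at -0.12 in both (edgeR adjusted p = 0.136 and 0.105). With these trends in GC content and length removed, Eno1 and Pkm in SH were 0.03 and 0.10, on the other side of 0.

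The lowest of the later enzymes was Pgam2, the muscle phosphoglycerate mutase, at -0.68 in IH with an SE of 0.26 (edgeR adjusted p = 0.0942). Its normalized counts were 147.4, 186.4, 129.4 and 143.6 in control, 113.9, 103.4, 134.8, 68.8 and 55.4 in IH, and 184.3, 144.4, 172.5, 102.5 and 98.4 in SH. IH replicate 3 lay among the control libraries and the other 4 below them, and SH spread over both. IH against SH was -0.57 (edgeR adjusted p = 0.262).

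**Figure D3:**
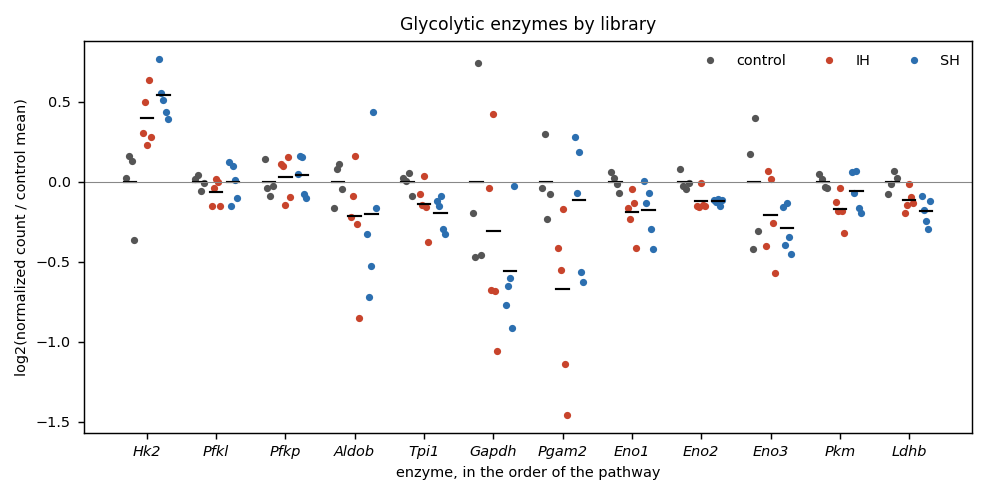
Log2 ratio of the normalized count of each library to the control mean for 12 glycolytic enzymes in pathway order, with short lines at the log2 ratio of the group means. Hk2 lies above 0 in all 10 hypoxia libraries, the enzymes from Tpi1 on lie mostly below 0 in both hypoxia groups, and Gapdh and Pgam2 are the most widely spread.

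Gapdh, the enzyme that oxidizes glyceraldehyde phosphate and a common reference for RT-qPCR, including the study's own, varied more between libraries than most genes. By library, the normalized counts were 1505, 1244, 2883 and 1251 in control, 1674, 1075, 2307, 1074 and 828.5 in IH, and 1011, 1097, 1132, 913.3 and 1688 in SH. The highest library was 3.48 times the lowest, and 2 control libraries, 2 IH libraries and 1 SH library were at 1505 or above. Its SD within groups on the log2 scale was 0.51, above that of 96.1% of the 6400 genes with a mean of at least 100, whose median was 0.16. Its log2 fold changes, -0.31 in IH (SE 0.30, edgeR adjusted p = 0.494) and -0.56 in SH (edgeR adjusted p = 0.189), did not pass. The IH value turned to 0.06 without control replicate 3, and the SH value ranged from -0.87 to -0.19 over all alternatives. Tpi1, the enzyme of the step before, was 8524 to 11482 in the same libraries. The annotation names 3 Gapdh pseudogenes and the retrogenes Gapdhrt and Gapdhrt2, so its reads could have been split between copies. Their part in the level and in the spread of Gapdh was not tested.

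Ldhb (chromosome 6, 142435672 to 142454586), the lactate dehydrogenase subunit that favours lactate use, fell in SH. Normalized counts were 5844, 6107, 6456 and 6274 in control, 5396, 5568, 6116, 5775 and 5622 in IH, and 5796, 5464, 5209, 5038 and 5684 in SH. SH lay just below control, with SH replicate 1 close to control replicate 1. The fall was 11.9% (log2 fold change -0.18, SE 0.06, edgeR adjusted p = 0.0342), and IH stood at -0.12 (edgeR adjusted p = 0.184). The call was lost without any 1 of control replicates 2, 3 and 4, IH replicate 4 and SH replicates 2, 3 and 4 (edgeR adjusted p 0.0548 to 0.0828), and with these trends in GC content and length removed (-0.10, edgeR adjusted p = 0.244). With the endothelial covariate it narrowly missed (-0.22, edgeR adjusted p = 0.0545). Pdk1, the HIF-induced kinase that shuts pyruvate out of the mitochondrial oxidation route, stood at 0.11 in IH and 0.16 in SH (SE 0.10 each, edgeR adjusted p = 0.482 and 0.280).

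Of the 6 tested SLC2 transporters, which carry glucose, fructose and other polyols and sugars, 1 rose in IH, and 1 rose and 1 fell in SH. That is 16.7% of the list in each case, beside 6.08% of all genes higher in IH and 10.1% higher and 10.5% lower in SH. Slc2a8 (chromosome 2, 32861636 to 32872231), an intracellular hexose transporter of neurons and other cells, fell in SH. Its normalized counts were 472.3, 539.9, 439.2 and 371.1 in control, 414.8, 435.9, 339.9, 448.7 and 343.2 in IH, and 336.3, 342.2, 300.1, 302.4 and 267.9 in SH. All SH libraries were below all control libraries, and IH lay between with overlap on both sides. The fall in SH was 32.0% (log2 fold change -0.56, SE 0.12, edgeR adjusted p = 0.00609). IH stood at -0.20 (edgeR adjusted p = 0.268), and IH against SH was 0.36 (edgeR adjusted p = 0.130). With these trends in GC content and length removed the SH value was -0.29 and did not pass (edgeR adjusted p = 0.172), nor did it with the endothelial covariate (-0.46, edgeR adjusted p = 0.0590).

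Slc2a13 (chromosome 15, 91151898 to 91457464) encodes a transporter of myo-inositol together with protons rather than of glucose, and it rose in both hypoxia groups. By library, the normalized counts were 2394, 2675, 2336 and 2430 in control, 2926, 2875, 2944, 2874 and 2785 in IH, and 2576, 3192, 3028, 3197 and 2768 in SH. The IH libraries were tightly grouped above control, and only SH replicate 1 lay within the control range. The log2 fold change was 0.23 in IH (SE 0.07, edgeR adjusted p = 0.0393) and 0.26 in SH (SE 0.07, edgeR adjusted p = 0.0132). The IH call was lost without any 1 of control replicates 1, 3 and 4 and the 5 IH libraries (edgeR adjusted p 0.0511 to 0.0997). With these trends in GC content and length removed both values were 0.10 and did not pass (edgeR adjusted p = 0.444 in IH and 0.435 in SH).

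The other SLC2 genes did not pass. Slc2a9, a urate transporter, had 81.0 to 128.5 in control, 24.0 to 88.6 in IH and 38.9 to 86.2 in SH (log2 fold changes -0.72 and -0.63, edgeR adjusted p = 0.143 and 0.166). Slc2a6, a lysosomal hexose transporter, was 586.9 to 660.0 in control and 664.6 to 764.5 in IH, groups that did not overlap (0.19, edgeR adjusted p = 0.173). Slc2a5, the fructose transporter that marks microglia in the brain, stood at -0.03 in IH and -0.23 in SH (edgeR adjusted p = 0.415 in SH). Summed microglia markers were 4759 to 5129 in control and 3710 to 4452 in SH, and their part in this value was not tested.

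None of the 9 tested SLC16 transporters passed in any comparison. Slc16a4, an orphan carrier of the family, came closest to passing. Normalized counts were 143.8, 121.7, 128.6 and 142.5 in control, 128.5, 125.6, 136.0, 106.9 and 158.4 in IH, and 166.0, 164.9, 193.2, 222.4 and 152.2 in SH. SH lay above all control libraries, with a log2 fold change of 0.42 (SE 0.15, edgeR adjusted p = 0.0545), while IH against SH was -0.45 (edgeR adjusted p = 0.110).

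Slc16a7, the high-affinity lactate and pyruvate carrier MCT2 of neurons, fell into separate levels that crossed the groups. Control replicate 3, IH replicates 1 and 4 and SH replicate 2 had 1243 to 1398 normalized counts. The other 10 libraries had 190.8 to 378.6, with none between. The SDs were nearly as large as the group means, which were 525.0 ± 489 (SD, n = 4) for control, 699.1 ± 573 (SD, n = 5) for IH and 508.1 ± 436 (SD, n = 5) for SH. Of the 4 high libraries, 3 were rich in choroid plexus markers and control replicate 3 was not, and their part in the split was not tested.

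**Figure D4:**
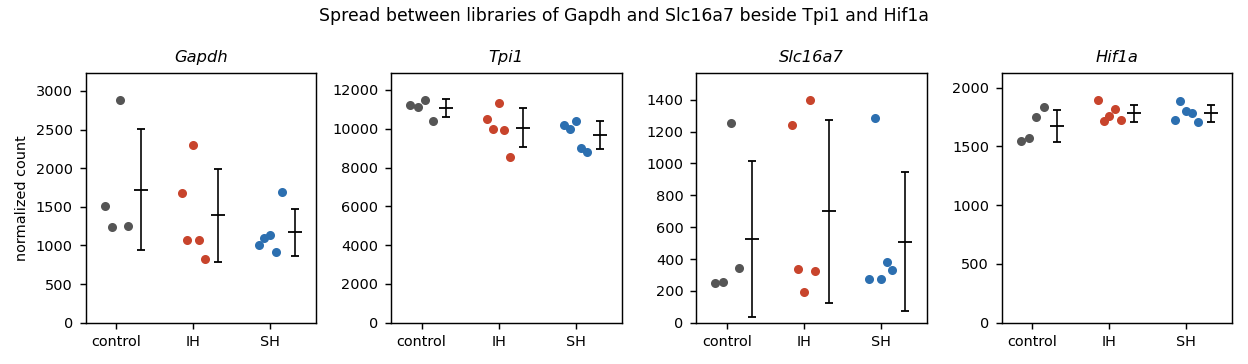
Normalized count by library of Gapdh and Slc16a7 beside Tpi1 and Hif1a, by group, with the group mean and bars of 1 SD; axes start at 0. Gapdh ranges from 828.5 to 2883 across all 3 groups and Slc16a7 has 4 libraries at 1243 or above and 10 at 378.6 or below, whereas Tpi1 and Hif1a vary little.

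Slc2a12, Slc16a12, Slc16a8 and Car12 were high in the libraries rich in choroid plexus markers. Slc2a12, a glucose transporter, had 248.7 to 631.6 in the 6 libraries rich in these markers and 40.6 to 116.7 in the other 8, so the sets did not overlap. Slc16a12, a creatine carrier, had 73.8 to 136.0 against 18.4 to 59.6, again without overlap. Slc16a8, the lactate carrier MCT3 of epithelia including the choroid plexus, had 36.4 to 124.0 against 13.1 to 42.6. Car12, a membrane carbonic anhydrase counted among the HIF targets, had 929.3 to 1953 against 826.6 to 1098. None of the 4 passed between groups. Their spread within groups was wide, as for Car12 with 1132 ± 548 (SD, n = 4) for control, 1276 ± 450 (SD, n = 5) for IH and 1286 ± 432 (SD, n = 5) for SH.

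**Figure D5:**
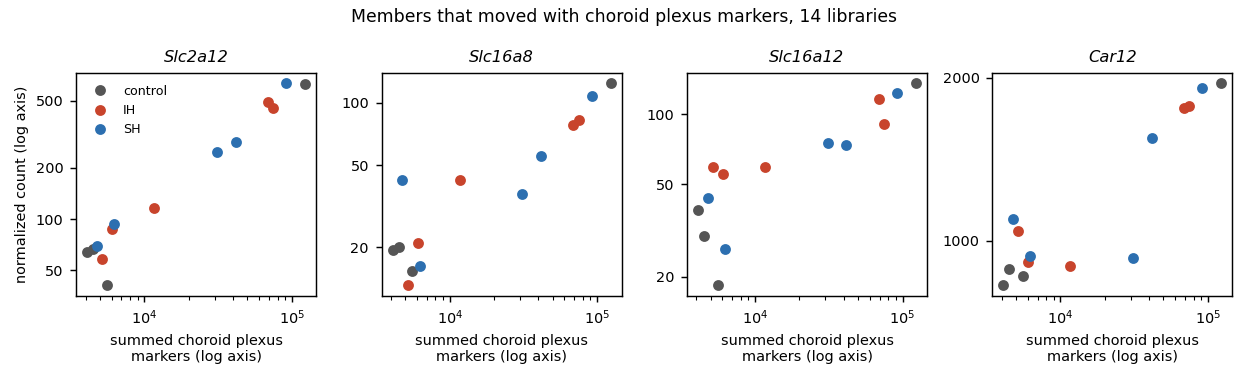
Normalized count of Slc2a12, Slc16a8, Slc16a12 and Car12 (log axis) against the summed normalized count of 15 choroid plexus markers (log axis), 1 point per library, coloured by group. In all 4 panels the libraries with the largest marker sums have the highest values, and each group is found at both ends.

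Other genes of the pathway were taken from lists, which were not tested as sets. Of 5 other tested HIF regulators, Elob, a subunit of the VHL ubiquitin ligase, fell in both IH (log2 fold change -0.35, edgeR adjusted p = 0.0241) and SH (-0.41, edgeR adjusted p = 0.00706). In SH, the ubiquitin ligase Siah2, which acts on EGLN proteins, also fell (-0.44, edgeR adjusted p = 0.0464) and Wsb1 rose (0.28, edgeR adjusted p = 0.0196). Of 13 other HIF-induced genes, 1 rose in IH and 4 rose and 1 fell in SH, where 30.8% of the list was higher beside 10.1% of all genes. In IH it was Plod1, another collagen-modifying hydroxylase (0.48, edgeR adjusted p = 0.0270). In SH, Insig2, a brake on sterol synthesis, rose by 0.33 on the log2 scale (edgeR adjusted p = 0.00684), the secreted hormone Stc2 rose by 0.60 (edgeR adjusted p = 0.00714) and Ndrg1 rose by 0.36 (edgeR adjusted p = 0.0223). The other SH calls were Mxi1 (0.29) and, lower, the glycogen enzyme Pgm1 (-0.20, edgeR adjusted p = 0.0238).

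In the neighbouring pathways, 1 of 5 tested genes of the pentose phosphate pathway fell in SH, Pgls (-0.54, edgeR adjusted p = 0.00380), and 0 passed in IH. Of 6 genes of the pyruvate dehydrogenase complex and the pyruvate carrier, 2 rose in SH, Dld (0.18, edgeR adjusted p = 0.0149) and the activating phosphatase Pdp1 (0.39, edgeR adjusted p = 0.0260). Of 6 genes of the tricarboxylic acid cycle, 1 fell in IH, Sdhb (-0.20, edgeR adjusted p = 0.0259). Of 7 glycogen genes, Pgm1 alone passed, in SH. Of 3 genes of the cytosolic NADH shuttles, Slc25a11 fell in SH (-0.23, edgeR adjusted p = 0.0308). Slc25a12, the aspartate-glutamate carrier of neurons, was lower in IH than in control (-0.16, edgeR adjusted p = 0.0423) and lower in IH than in SH (-0.19, edgeR adjusted p = 0.0373). These counts are of 1 or 2 genes each. Of all genes tested, 6.08% were higher and 4.85% lower in IH, and 10.1% higher and 10.5% lower in SH, than in control.

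Most calls of the members were lost under either of 2 changes to the analysis. With each library's trends in GC content and length removed, Vegfa and Pfkfb3 still passed in IH, and Vegfa between IH and SH. In SH, 0 of the 4 rises passed, and Tfrc alone was called lower. Over all genes, SH calls went from 744 higher and 769 lower to 183 and 228. Over all alternatives, the lowest SH log2 fold change was 0.37 for Hk2 (0.54 in the main fit), 0.24 for Pfkfb3 (0.31), 0.16 for Flt1 (0.22) and 0.10 for Slc2a13 (0.26). Without the 6 libraries rich in choroid plexus markers, which left 3 control, 3 IH and 2 SH libraries, P4ha1 in IH was the only member to pass.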

How the data were processed

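Poly(A) RNA of hippocampi was sequenced as paired ends from directional libraries. Per the labels and the methods, the authors trimmed reads with fastp 0.23.4, aligned them to GRCm39 with HISAT2 2.2.1 and quantified them with StringTie 2.2.1. The deposited values are estimated counts (of reads, one per gene and library), which the authors did not normalize. The authors kept 7756 protein-coding genes by a count above 40 in each group and by their difference from control. Whether counting used strand is not given in the sources used here, and of the 10 members that passed, 7 overlap another annotated gene.

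Counts that were not whole (10 genes) were rounded. Genes with a mean of at least 40 in every group (7338) were tested with edgeR 4.0.16 (R 4.3.3), TMM scaling and the quasi-likelihood test in one fit of 3 groups, with Benjamini-Hochberg adjustment and a call under 0.05. Counts limit the precision of low genes, and total counts were 7203663 to 11777102. On simulated data for IH vs. control (7338 genes, 200 changed), 50% of genes changed by 0.5 and 85% of genes changed by 1 on the log2 scale were recovered, with 6 false calls. Standard errors were obtained from the fold change and its F statistic (log2 fold change over √F). The labels number libraries within groups, and if these are not separate animals the p-values measure technical spread.

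Any member could be named, but the values of 1 member and of 1 gene of another list are not reported here. Full statistics were given for members that passed and for Hif1a, Arnt, Egln3, Vegfa, Kdr, Flt1, Tfrc, Ddit4, Gapdh, Eno1, Pkm, Ldhb and Pdk1 whatever their values. Of the other lists, counts and up to 3 passing genes with the smallest p were to be named, and further names in counts of 5 or fewer were added after their values were seen. The members and lists were chosen with earlier results of these data known. Alternatives were DESeq2 1.42.0, scaling by library total or 80th percentile, no count filter, a fit of 2 groups, the replicate number as a block, loess removal of GC content and length trends, covariates for choroid plexus or endothelial markers, the study's limits and leaving out each library. Leaving out the libraries with a choroid plexus sum above 30000 was added after the data were examined.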

Additional observations from a re-analysis of the deposited data

Results flagged for a closer look

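In 13 of 141 sets of values (47 members in 3 groups), the highest or lowest library stood apart by Dixon's test at the 95% level. Chance gives about 1 in 20 of such sets. The test was run on normalized counts. Control replicate 4 was the library in 4 of these sets and control replicate 3 in 2, and the other 7 sets were spread over 7 libraries.

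Control replicate 4, the library with the highest choroid plexus sum, was far above the other controls in Vegfa (1852 against 1525 to 1536), Car12 (1953 against 826.6 to 885.4), Slc2a12 (622.4 against 40.6 to 66.4) and Slc16a8 (124.0, with the lowest control at 15.5). Control replicate 3 was far above in Gapdh (2883 against 1244 to 1505) and in Slc16a7 (1256 against 247.5 to 341.7). SH replicate 5 was far above in Gapdh (1688 against 913.3 to 1132), and SH replicate 2 in Slc16a7 (1284 against 272.2 to 378.6).

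The remaining cases were smaller in size. They were Egln2 in control replicate 2 (1811 against 1656 to 1669), Pfkfb3 in IH replicate 5 (1329 against 1129 to 1181) and Eno2 in IH replicate 3 (17848 against 16115 to 16263) on the high side. On the low side they were Egln3 in IH replicate 1 (34.5 against 64.4 to 73.2) and Slc2a10 in IH replicate 4 (27.5 against 39.4 to 42.8), both with few counts.

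The effects of IH and SH on Vegfa differed from each other, by a log2 fold change of 0.50 between IH and SH (adjusted p = 0.00154, edgeR). It was the only member of the 44 tested for which this difference passed.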

How the results depend on the processing

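The calls of Vegfa and Pfkfb3 in IH and of Vegfa between IH and SH were lost without the 6 libraries rich in choroid plexus markers and, with log2 differences under 0.58, at the study's limits, and held under the other alternatives. Compared with 5 members higher in IH, and 4 higher and 3 lower in SH, DESeq2 called 7, 6 and 3, with Flt1 passing in IH (0.20, adjusted p = 0.0352). Removing the GC content and length trends left 2 higher in IH, 0 higher in SH and 1 lower in each. Over all genes it left 145 higher and 182 lower in IH, from 446 and 356. In SH it left 183 higher and 228 lower, from 744 and 769. Without the libraries rich in choroid plexus markers, 1 was higher in IH, 0 higher and 0 lower in SH, and 0 higher in IH than in SH, and the cause was not tested beyond the smaller number of libraries. At an unadjusted p under 0.05 and a log2 difference of over 0.58, as the study used, there were 1 higher and 2 lower in IH and 0 higher and 0 lower in SH, and Ankrd37 passed as higher in IH than in SH (0.61, unadjusted p = 0.0144). A fit of only the 2 groups compared gave 1 lower in SH. Leaving out 1 library gave 3 to 5 higher and 0 to 1 lower in IH, 2 to 5 higher and 1 to 4 lower in SH. Replicate numbers did not pair the libraries: deviations from group means correlated between -0.30 and 0.46 over 13 same-numbered pairs, 6 above 0.1, and 5 of 14 libraries correlated best with their own number. The replicate block gave 4 higher in IH and 4 higher and 1 lower in SH. P4ha1 in IH and Egln2 and Ldhb in SH were lost both with it and in the fit of 2 groups (adjusted p 0.0505 to 0.0639).

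Members that had not passed changed sign as follows. With the GC content and length trends removed, Hif1a was -0.093 in IH and -0.12 in SH, Egln2 was 0.13 in IH and 0.054 in SH, and in SH Ddit4 was 0.016, Kdr was -0.070, Eno1 was 0.033 and Pkm was 0.098. Between IH and SH, the same setting gave 0.023 for Hif1a, -0.049 for Ddit4, 0.0068 for Flt1 and 0.0021 for Slc2a13. With the endothelial covariate, Egln3 in IH was 0.058, Tfrc in SH was 0.040 and Kdr in SH was -0.18, and between IH and SH Hif1a was 0.010, Ddit4 was -0.012, Kdr was 0.12, Eno1 was 0.048 and Pdk1 was 0.0083. With the choroid plexus covariate, Egln3 in IH was 0.084, Kdr in SH was -0.059 and Hif1a between IH and SH was 0.0023. Without the libraries rich in choroid plexus markers, Kdr in SH was -0.018, and Ddit4 between IH and SH was -0.10. Kdr in IH was 0.0032 with scaling by library total and 0.0077 with the replicate block, and Kdr in SH was -0.010 with scaling by the 80th percentile. Hif1a between IH and SH was 0.00047 with DESeq2, 0.0043 with the 80th percentile and 0.0023 in the fit of 2 groups. Of these, Egln2 in SH was the only value that had passed before.

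Leaving out 1 library in turn, Egln3 in IH ranged from -0.19 to 0.12, Kdr in IH from -0.097 to 0.068, Gapdh in IH from -0.57 to 0.060 and Kdr in SH from -0.080 to 0.11. Between IH and SH, Hif1a ranged from -0.023 to 0.021, Ddit4 from -0.049 to 0.090, Kdr from -0.13 to 0.061, Gapdh from -0.0087 to 0.42, Eno1 from -0.073 to 0.033 and Pdk1 from -0.11 to 0.021. Counting error is largest in members under about 100 counts. Of these, Egln3, Ankrd37 and Slc2a9 had standard errors of 0.22 to 0.32 and Slc16a8 and Slc16a12 of 0.47 to 0.67, and the part of depth in these was not tested.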
